A study of Mus musculus with 7 samples.

Results

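The genes described are 10 integrin receptor genes, Itga1, Itga3, Itga4, Itga5, Itga6, Itga8, Itga9, Itgav, Itgb1 and Itgb8, chosen by name among the 22738 gene rows of each count table. RNA was sequenced from mouse epicardial explants in 4 wild type libraries and 3 Lmnb1-/- libraries, the latter from embryos without lamin B1, a protein of the nuclear lamina. Both groups had the same mixed strain background (C57BL/6;129S4Sv/Jae;129S6/SvEvTac), were taken at E12.5 and received no treatment. Ventricles lay on gelatin for 48 hours while epicardial cells moved out, and the cells left after removal of the heart grew for 72 hours more. The labels do not describe the Lmnb1 allele, and they do not say whether replicates came from separate embryos or pools, so p-values measure the spread between these libraries, which may in part be technical.

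Integrins are cell surface receptors made of 1 alpha and 1 beta chain that tie the extracellular matrix outside the cell to the actin skeleton inside it. The alpha chain largely sets the ligand. In the epicardium, the outer cell layer of the heart, integrins hold the layer on its matrix, and the alpha 4 chain is known for keeping the epicardium attached to the heart muscle through VCAM1. Some alpha V receptors, among them alpha V beta 8, bind latent TGF-beta and help to release its active form.

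Total counts ran from 1024898 to 3066936 per library. Lmnb1 had 185 to 567 counts per wild type library and 2 to 4 per Lmnb1-/- library, as the labels say. Wild type replicates 1 and 3 held Xist counts of 595 and 642 and were female, whereas the other 5 libraries were male. Defining markers of the epicardium (Wt1, Tbx18, Tcf21, Aldh1a2, Upk3b, Msln, Bnc1 and Krt19) were present in every library, with a sum of 1592 to 2284 CPM in the wild type group and of 1191 to 1434 CPM in the other. CPM are counts scaled to the library total after TMM scaling, and values per library are listed in the order of the replicate numbers. Of the 8 epicardial markers 7 had a log2 fold change below 0, as did 52.4% of all tested genes, and 0 passed the test. Some markers of other cells were also present. The summed level of 8 smooth muscle and pericyte markers was 10376 to 11589 CPM against 7818 to 8528 CPM in the same order. At an adjusted p under 0.05, 4 of the 7 tested fell, against 0.343% of all tested genes. For 8 leukocyte markers it was 40.3 to 203 CPM and 25.1 to 358 CPM. For 8 fibroblast markers it was 3209 to 8199 CPM and 3038 to 3773 CPM. For 8 endothelial markers, with Cldn5 at 0 counts in every library, it was 25.7 to 54.8 CPM and 33.1 to 47.1 CPM. For 8 cardiomyocyte markers, with Myh7 at 0 counts in every library, it was 401 to 785 CPM and 448 to 591 CPM. Only 1 leukocyte, 1 endothelial and 3 cardiomyocyte markers reached 10 counts in every library. Of the smooth muscle and pericyte markers and of the fibroblast markers, 7 each did. The fibroblast top of 8199 CPM came from wild type replicate 2, where Col1a1 alone was at 5024 CPM. In the other wild type libraries Col1a1 was at 806 to 1241 CPM. Tcf21 is in both the fibroblast and the epicardial list, and 0 fibroblast markers passed the test.

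In wild type explants the shared beta chain gene Itgb1 was the most abundant integrin transcript and Itgb8 the least abundant of the 10. Levels of different genes were compared as CPM per kb of the longest annotated coding transcript. The mean level of Itgb1, whose chain pairs with most alpha chains, was 759 ± 102 CPM per kb (SD, n = 4). Itgav, encoding the alpha V chain, followed at 110 ± 12.1 CPM per kb. Itga5, for the classical fibronectin receptor, and Itga3, for a laminin receptor, were at 57.5 ± 10.5 and 54.5 ± 13.4 CPM per kb and did not differ beyond their spread. Itga6, for a second laminin receptor, was at 23.5 ± 5.72 CPM per kb, and its lowest library lay below the highest of Itga8. Itga8, whose receptor binds nephronectin and fibronectin, and Itga1, for a collagen receptor, overlapped at 12.02 ± 7.14 and 11.3 ± 3.38 CPM per kb. Itga4, whose range reached that of Itga1, was at 6.13 ± 2.56, Itga9, for a tenascin receptor, at 2.52 ± 0.969 and Itgb8 at 0.853 ± 0.397 CPM per kb. The wild type ranges of Itga4, Itga9 and Itgb8 lay apart, in that order.

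In the Lmnb1-/- explants Itga6 stood level with Itga3 and Itga5, at mean levels of 41.3 ± 3.70, 42.1 ± 9.34 and 41.2 ± 1.66 CPM per kb (SD, n = 3), with ranges that overlapped. Itga8, at 2.94 ± 0.553 CPM per kb, was no longer level with Itga1, at 6.65 ± 0.990, and its range reached that of Itga4, at 3.75 ± 0.658 CPM per kb. Itgb1 and Itgav were again highest, at 656 ± 60.7 and 107 ± 10.8 CPM per kb, and Itgb8 was lowest at 0.308 ± 0.105 CPM per kb.

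**Figure D1:**
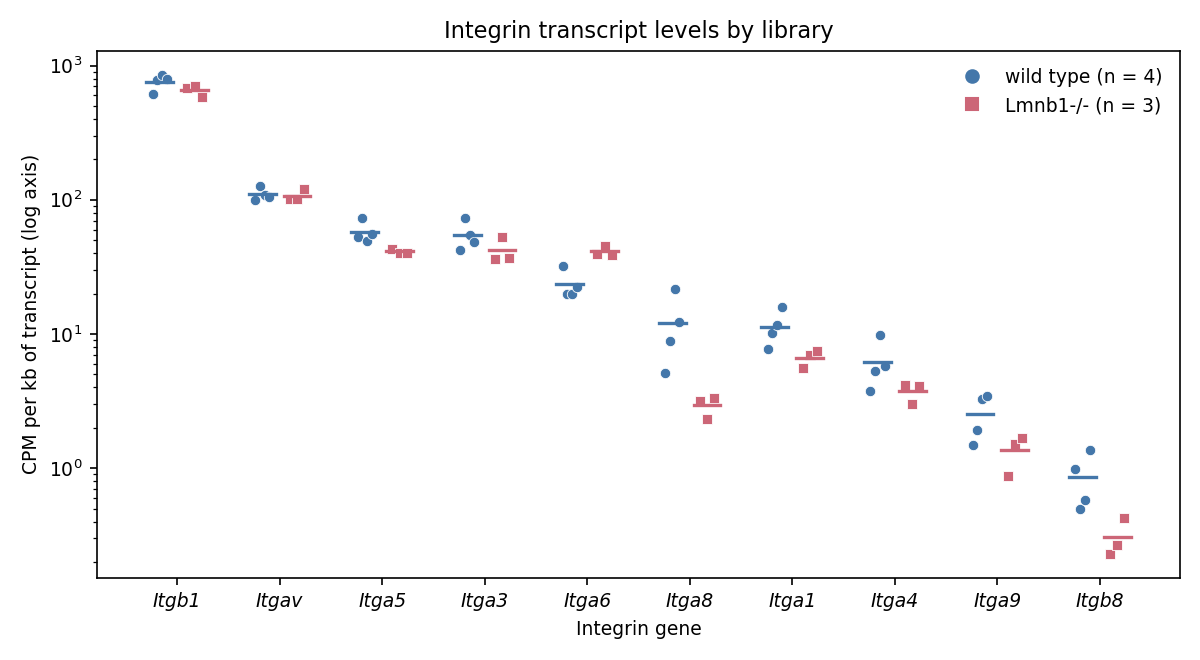
Level of each integrin gene in each library, in CPM per kb of transcript on a log axis. Circles are the 4 wild type libraries, squares the 3 Lmnb1-/- libraries, and horizontal lines the group means, with genes in the order of their wild type mean. Itga6 is the gene whose Lmnb1-/- libraries all lie above wild type, and Itga8 shows the widest wild type spread.

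All 10 genes passed the count filter, which asked for the equivalent of 10 counts in at least 3 libraries. Itgb8 reached it in 3 wild type libraries and in 0 Lmnb1-/- libraries, so the filter favoured a lower value there, and Itgb8 is left out of the counts that follow. Each of the other 9 genes reached it in all 7 libraries. Among these 9 genes 1 rose, Itga6, and 0 fell at an adjusted p under 0.05 in edgeR's quasi-likelihood test, against a background of 0.705% of the 10775 tested genes that changed, 0.362% that rose and 0.343% that fell. At an unadjusted p under 0.05 there were 5 lower genes, Itga1, Itga4, Itga5, Itga8 and Itga9, and 1 higher gene, Itga6. By that measure 13.6% of all tested genes differed and 7.43% were lower. DESeq2 called 3 of the 9, Itga1 and Itga8 lower and Itga6 higher, against 2.07% of the 8474 genes to which it gave an adjusted p. For limma voom the count was 0 of 9, against 0.427% of all genes. The share of all genes called by edgeR was 0.895% among male libraries, 0.863% with library number groups as a term and 2.63% without wild type replicate 1, settings that come up again for single genes. The log2 fold changes of 8 of the 9 were below 0, with a median of -0.47, against 52.4% of all tested genes below 0 and a median of -0.02. The ranges of the 2 groups did not overlap for 3 lower genes, Itga1, Itga5 and Itga8 (background 6.92%), and for 1 higher gene, Itga6 (background 6.36%), where 13.3% of all genes lay apart in either direction. The 10 genes were chosen with earlier results of these data known, so their counts are no independent support for a change in integrin genes as a set.

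**Figure D2:**
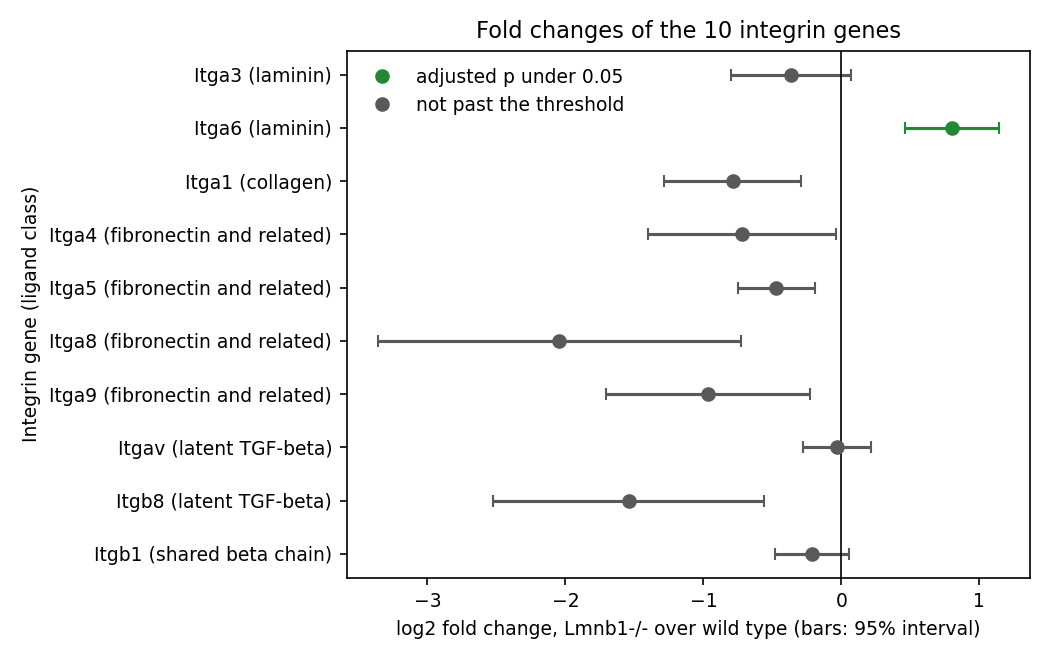
Log2 fold change of each integrin gene in Lmnb1-/- over wild type explants, with the ligand class of its receptor in parentheses. Points are the edgeR estimates and bars their 95% intervals, and green marks an adjusted p under 0.05. Itga6 at 0.80 is the only gene of the 10 above 0, and the interval of Itga8, at -2.04, is the widest.

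Among the laminin receptor genes, Itga6 rose and Itga3 did not change detectably. Laminins are the main cross-shaped proteins of basement membranes. Itga6 was at 137, 85.8, 85.5 and 96.1 CPM in the 4 wild type libraries, and at 170, 196 and 168 CPM in the 3 Lmnb1-/- libraries. Every Lmnb1-/- library lay above every wild type library, and wild type replicate 1 lay closest to them. The group means were 101 ± 24.7 CPM (SD, n = 4) and 178 ± 15.9 CPM (SD, n = 3), a 1.74-fold rise with a log2 fold change of 0.80 (SE 0.16, 95% interval 0.46 to 1.14) and an adjusted p of 0.0412 in edgeR's quasi-likelihood test. Itga3 was at 204, 355, 264 and 236 CPM in the 4 wild type libraries and at 177, 257 and 179 CPM in the 3 Lmnb1-/- libraries. The Itga3 groups overlapped, since Lmnb1-/- replicate 2 lay above wild type replicates 1 and 4. Its log2 fold change was -0.36 (SE 0.20, 95% interval -0.80 to 0.07, adjusted p = 0.459 by edgeR).

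The Itga6 difference was smaller in one set of neighbouring libraries than in the other. Each table carries a library number, and the numbers fall into groups that place wild type replicate 1 beside Lmnb1-/- replicate 1, and wild type replicate 4 beside Lmnb1-/- replicates 2 and 3. Over all tested genes, deviations from the group means correlated at 0.26 for the first of these pairs, and wild type replicate 4 correlated at 0.19 and 0.33 with its neighbours, Lmnb1-/- replicates 2 and 3. The other 9 pairs across the groups had correlations of -0.45 to 0.16. Within the number groups the log2 ratio of Itga6 CPM was 0.31 and 0.92. Wild type replicates 2 and 3 share no group with an Lmnb1-/- library. A fit with these groups as a term therefore takes no difference between genotypes from them. That fit gave a log2 fold change of 0.64 and an adjusted p of 0.0610 by edgeR. Among male libraries it was 0.95 (adjusted p = 0.0131 by edgeR), and with sex as a covariate also 0.95 (adjusted p = 0.0739). The call was lost on leaving out any one library other than wild type replicate 1, with adjusted p-values of 0.0687 to 0.216 and log2 fold changes of 0.72 to 0.85, and without wild type replicate 1 it was 0.99 (adjusted p = 0.0018 by edgeR). Over all alternatives the adjusted p ran from 0.00179, in DESeq2, to 0.216.

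The balance between the laminin receptor alpha chains was given as the ratio of Itga6 to Itga3 in CPM per kb. It was 0.762, 0.272, 0.365 and 0.460 in the 4 wild type libraries and 1.08, 0.862 and 1.05 in the 3 Lmnb1-/- libraries. All 3 Lmnb1-/- ratios were above the 4 wild type ratios, a description without a test. The alpha 6 chain pairs with beta 1 and, in epithelia with hemidesmosomes, with beta 4. Itgb4 was below the count filter, at 0.635 ± 0.245 CPM per kb in wild type and 0.386 ± 0.071 CPM per kb in Lmnb1-/- explants. Itga7, for another laminin receptor alpha chain, had a log2 fold change of -0.19 (adjusted p = 0.771 by edgeR).

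The collagen receptor gene Itga1 was lower in every Lmnb1-/- library but did not pass the test. The alpha 1 chain prefers collagen IV of basement membranes. Itga1 was at 84.8, 111, 128 and 173 CPM in the 4 wild type libraries and at 60.8, 76.3 and 81.7 CPM in the 3 Lmnb1-/- libraries. The groups lay apart by a narrow gap, between wild type replicate 1 and Lmnb1-/- replicate 3. The log2 fold change was -0.79 (SE 0.22, 95% interval -1.28 to -0.29) with an adjusted p of 0.160 in edgeR's quasi-likelihood test. It passed in DESeq2 (adjusted p = 0.0315), in the fit with the library number groups (0.0166 by edgeR) and without wild type replicate 1 (0.0185 by edgeR), with adjusted p-values from 0.0166 to 0.409 over all alternatives. The other collagen receptor alpha chains, Itga2, Itga10 and Itga11, were below the count filter, so Itga1 was the only tested gene of that class.

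Of the fibronectin receptor group, with its related ligands VCAM1, tenascin and nephronectin, all 4 genes had values below 0 and none passed. Itga8 had the largest difference. It was at 29.6, 51.7, 127 and 71.7 CPM in the 4 wild type libraries and at 18.3, 13.5 and 19.5 CPM in the 3 Lmnb1-/- libraries. The Lmnb1-/- libraries were all lower and close together, whereas wild type spanned a 4.28-fold range with replicate 3 highest and replicate 1 lowest. The fitted level was 4.12-fold lower, a log2 fold change of -2.04 (SE 0.54, 95% interval -3.36 to -0.73, adjusted p = 0.199 by edgeR).

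Itga8 passed the threshold in DESeq2 (adjusted p = 0.0164), among male libraries (0.00447 by edgeR) and without wild type replicate 1 (0.0163 by edgeR), and not in the other alternatives, which reached 0.456. Its log2 fold change was -1.56 without wild type replicate 3. Within the number groups the log2 ratio of Itga8 CPM was -0.69 for wild type replicate 1 against Lmnb1-/- replicate 1 and -2.12 for wild type replicate 4 against Lmnb1-/- replicates 2 and 3. The alpha 8 chain is known from smooth muscle and other contractile mesenchymal cells. The summed level of the smooth muscle and pericyte markers given above was lower in the same libraries. Most of that sum was Acta2 and Tagln, with wild type means of 5138 and 5302 CPM. All 7 tested markers had a log2 fold change below 0, but the ranges of Myh11 and Cnn1 overlapped. The part of these markers in the result was not tested, and in bulk RNA fewer cells of a type and less RNA per cell cannot be told apart.

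**Figure D3:**
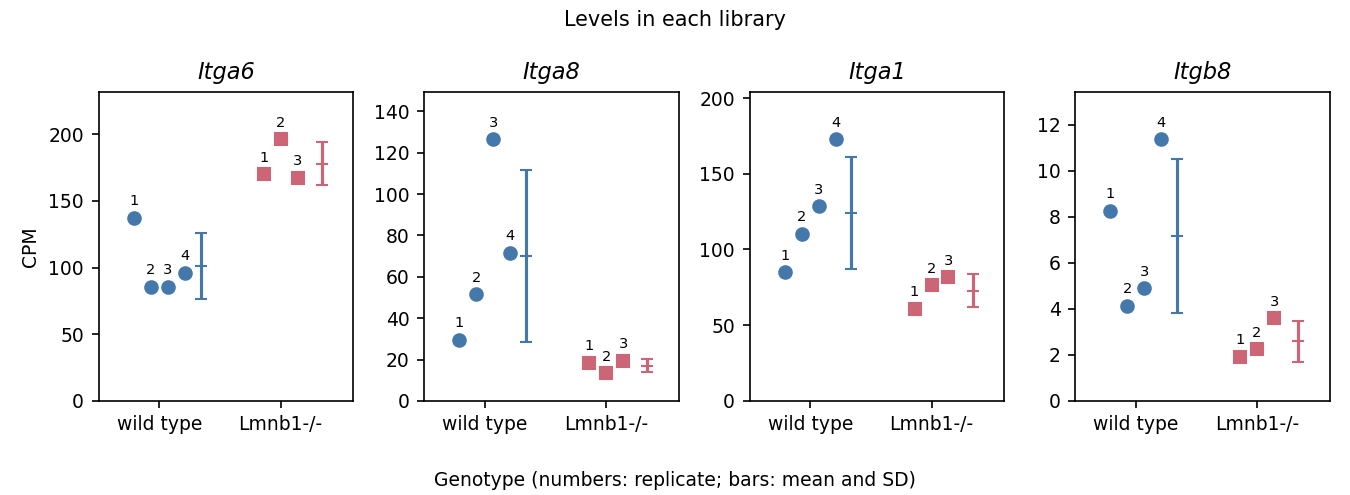
CPM of Itga6, Itga8, Itga1 and Itgb8 in each library, on axes that start at 0. Points carry their replicate number, and the bars beside them are the mean and SD of 4 wild type and 3 Lmnb1-/- libraries. The groups do not overlap for any of these genes, as for 13.3% of all tested genes. Itgb8 was tested only through its wild type libraries. Wild type replicate 1 is the wild type library nearest to the Lmnb1-/- libraries for Itga6, Itga8 and Itga1.

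Itga5 was at 231, 318, 214 and 244 CPM in the 4 wild type libraries and at 189, 176 and 176 CPM in the 3 Lmnb1-/- libraries. The groups did not overlap, and the Lmnb1-/- libraries spread little. The log2 fold change was -0.47 (SE 0.13, 95% interval -0.75 to -0.19) and the adjusted p 0.126 in edgeR's quasi-likelihood test, with 0.0509 to 0.387 over the alternatives, so Itga5 did not pass in any of them.

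Itga4, for the receptor of VCAM1 and of a variable part of fibronectin, was at 36.5, 51.7, 95.3 and 56.1 CPM in the 4 wild type libraries and at 40.5, 29.2 and 40.1 CPM in the 3 Lmnb1-/- libraries. The groups overlapped, because wild type replicate 1 lay below Lmnb1-/- replicates 1 and 3. The Itga4 log2 fold change was -0.72 (SE 0.30, 95% interval -1.40 to -0.04, adjusted p = 0.344 by edgeR), and it was -0.37 without wild type replicate 3. Itga9 was at 10.4, 13.4, 23.0 and 24.0 CPM in the 4 wild type libraries and at 6.11, 10.7 and 11.8 CPM in the 3 Lmnb1-/- libraries. Wild type replicates 3 and 4 stood above the rest and the groups overlapped. The Itga9 log2 fold change was -0.97 (SE 0.34, 95% interval -1.71 to -0.23, adjusted p = 0.242 by edgeR) on counts of 13 to 61 per library.

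Of the genes for latent TGF-beta receptors, Itgav was nearly the same in both groups and Itgb8 was low and lower. Itgav was at 698, 896, 762 and 742 CPM in the 4 wild type libraries and at 713, 712 and 845 CPM in the 3 Lmnb1-/- libraries. The groups overlapped fully, and the log2 fold change was -0.03 (SE 0.11), with a 95% interval of -0.28 to 0.21 and an adjusted p of 0.934 by edgeR. Its sign changed between alternatives, from -0.11 to 0.053. The alpha V chain also serves receptors of vitronectin and fibronectin with other beta chains, so Itgav does not mark the latent TGF-beta receptors alone.

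Itgb8, whose chain pairs only with alpha V, had counts of 19, 4, 13 and 27 in the 4 wild type libraries and of 6, 4 and 7 in the 3 Lmnb1-/- libraries. In CPM these were 8.26, 4.13, 4.90 and 11.4 against 1.93, 2.24 and 3.60. The groups lay apart, though 3 counts made 3.10 CPM in the smallest library, wild type replicate 2. The log2 fold change was -1.54 (SE 0.46, 95% interval -2.53 to -0.56, adjusted p = 0.152 by edgeR). Since Itgb8 was tested only because its wild type libraries reached the count filter, this test and its one call, in the fit with the library number groups (log2 fold change -1.98, adjusted p = 0.0417 by edgeR), cannot be read as support for a decrease. DESeq2 gave it no adjusted p. It fell below the count filter among male libraries and on leaving out wild type replicate 1, 3 or 4.

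The shared beta chain gene Itgb1 was at 2343, 2964, 3260 and 3022 CPM in the 4 wild type libraries and at 2593, 2675 and 2239 CPM in the 3 Lmnb1-/- libraries. Wild type replicate 1 lay among the Lmnb1-/- libraries. The log2 fold change was -0.21 (SE 0.12) with a 95% interval of -0.48 to 0.05 and an adjusted p of 0.477 by edgeR. Counts of 2869 to 8658 per library lay behind these values, the highest of the 10 genes.

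The make-up of the alpha chain transcripts was described as each gene's share of the summed CPM per kb of the 8 alpha chain genes. The sum was 277 ± 31.3 CPM per kb in wild type (SD, n = 4) and 246 ± 11.0 in Lmnb1-/- explants (SD, n = 3), with overlapping ranges. Itga6 made up 13.1, 6.24, 7.14 and 8.29% in the 4 wild type libraries and 16.9, 18.0 and 15.4% in the 3 Lmnb1-/- libraries. Itga3 and Itga6 together held 28.1 ± 1.92% and 33.8 ± 4.55%, with ranges that overlapped. The fibronectin group, Itga4, Itga5, Itga8 and Itga9, held 28.1 ± 1.77% in wild type, between 25.9 and 30.1%, and 20.02 ± 1.73% in Lmnb1-/- explants, between 18.6 and 21.9%. Itga1 held 4.10 ± 1.27% and 2.69 ± 0.295%, and Itgav 39.6 ± 0.772% and 43.5 ± 3.81%. Shares add up to a whole, so a higher share of one chain lowers the others. Differences between the ligand classes were not tested.

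**Figure D4:**
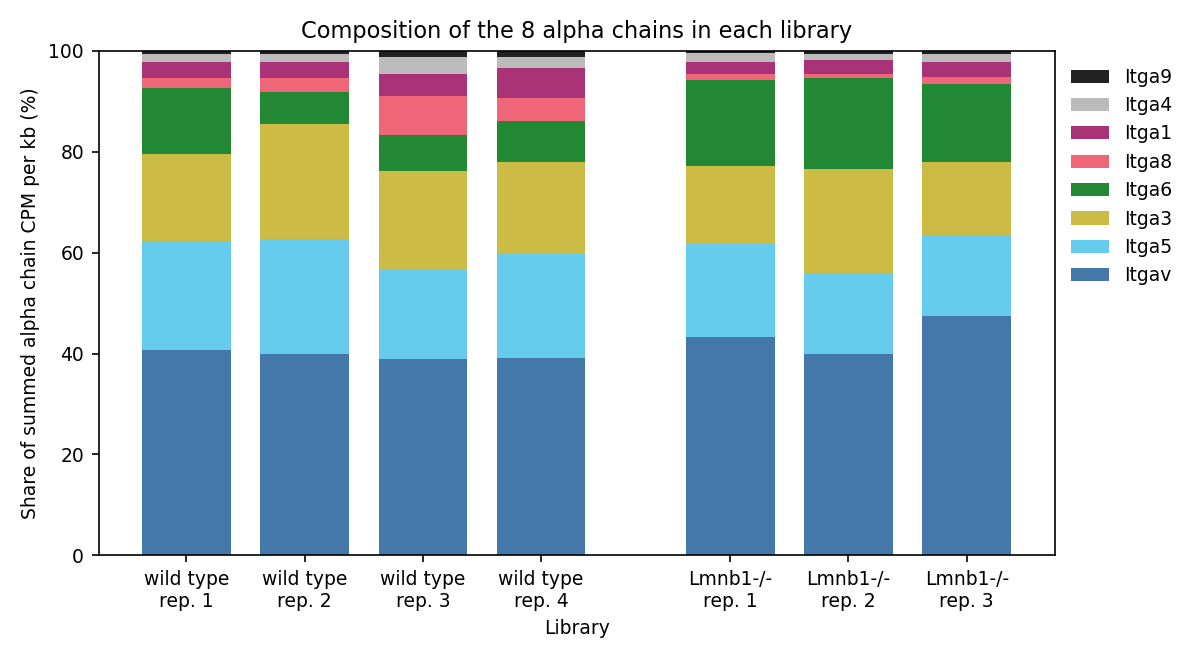
Share of each alpha chain gene in the summed CPM per kb of the 8 alpha chain genes, stacked to 100% for each library. Itga6 takes 15.4 to 18.0% in the 3 Lmnb1-/- libraries and 6.24 to 13.1% in the 4 wild type libraries, while the shares of Itga8 and Itga5 are smaller in the Lmnb1-/- means (1.20 and 16.7% against 4.33 and 20.7%).

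Several of the 10 genes varied together across the 7 libraries. Pearson's r of log2 CPM was 0.95 between Itga1 and Itga9 and 0.94 between Itga4 and Itga8, and -0.95 between Itga6 and Itga8. These values hold the difference between the groups as well as the spread within them, and all points share their libraries, so they are a description. The genes whose pattern was most like that of Itga6 over the 7 libraries were Pop1, a subunit gene of RNase P and RNase MRP (r = 0.998), Srr, encoding serine racemase (r = 0.990), and Tmed5, encoding a protein of the early secretory pathway (r = 0.986). Mean levels in wild type and Lmnb1-/- explants were 41.3 ± 9.86 and 69.9 ± 7.09 CPM for Pop1, Srr being at 61.8 ± 5.48 and 74.4 ± 3.22 CPM, and Tmed5 at 121 ± 18.8 and 175 ± 6.63 CPM. None of these 3 genes passed (adjusted p = 0.0765, 0.388 and 0.0750 by edgeR).

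Of 16 other integrin chain genes, 6 were tested and 0 changed in edgeR's test, with 0 at an unadjusted p under 0.05 and 0 in DESeq2. Their median log2 fold change was -0.10. Itgb5, whose chain pairs with alpha V, was the most abundant beta chain after Itgb1, at 82.4 ± 17.1 CPM per kb in wild type and 65.0 ± 11.2 CPM per kb in Lmnb1-/- explants, with a log2 fold change of -0.35 (adjusted p = 0.422 by edgeR). Itgb3, for another partner of alpha V, had -1.05 (adjusted p = 0.615). Itgb6, a further partner chain for latent TGF-beta, was below the count filter. Itgal, an alpha chain gene of leukocyte integrins, was at 1.16 on the log2 fold scale (SE 1.24, adjusted p = 0.735 by edgeR), with 11.4, 14.02 and 21.1 CPM in wild type replicate 4 and Lmnb1-/- replicates 2 and 3 and at most 3.48 CPM in the other 4 libraries. Itgam, another, was at 35.4 CPM in wild type replicate 4 and 39.1 CPM in Lmnb1-/- replicate 3, and at 1.29 to 11.8 CPM in the other 5 libraries. The leukocyte markers were highest in those 2 libraries, at 203 and 358 CPM in sum, and stood at 174 CPM in Lmnb1-/- replicate 2, and their part in these values was not tested.

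Among ligands, 1 tested gene fell, Tgfb3, and 0 rose (all genes 0.343% and 0.362%). Tgfb3 encodes TGF-beta 3, which is secreted in latent form. It was at 361, 595, 557 and 665 CPM in the 4 wild type libraries and at 235, 265 and 269 CPM in the 3 Lmnb1-/- libraries. All Lmnb1-/- libraries were below all wild type libraries. The log2 fold change was -1.08 (SE 0.18, adjusted p = 0.0315 by edgeR), and the call was lost on leaving out any library other than wild type replicate 1 or 4 (adjusted p = 0.0782 to 0.158). Tgfb2 and Ltbp2, for a second TGF-beta and a latent TGF-beta binding protein family member, were at -0.77 and -1.26 (adjusted p = 0.0912 and 0.281 by edgeR). Of the 9 latent TGF-beta complex genes 7 were below 0 (all genes 52.4%), with a median of -0.45, and 3 were lower at an unadjusted p under 0.05 (all genes 7.43%).

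Laminin chains had values below 0 in 8 of 8 tested genes, where 52.4% of all tested genes were below 0, and a median of -0.38 on the log2 scale. None passed, with 2 lower at an unadjusted p under 0.05, where 7.43% of all genes were, and 0 in DESeq2. Lamb2, Lamc1 and Lamb1 were at -0.64, -0.40 and -0.19 (adjusted p = 0.126, 0.160 and 0.467 by edgeR). The laminin chain values and that of Itga6 had opposite signs, in 8 genes that did not pass and 1 that did. The other laminin receptor alpha chain genes, Itga3 (-0.36) and Itga7 (-0.19), and Itgb1 (-0.21) had the sign of the laminin chains. A link between receptor and ligand levels was not tested.

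Collagen ligands were below 0 in 13 of 13 tested genes (all genes 52.4%), with a median of -0.46. None passed, with 7 lower at an unadjusted p under 0.05 (all genes 7.43%) and 1 in DESeq2, Col6a1 (all genes 2.07%). Col6a2, Col6a1 and Col4a1 were at -1.14, -1.04 and -0.46 (adjusted p = 0.0640, 0.0724 and 0.212 by edgeR). Of 12 tested fibronectin-type ligands, 8 were below 0, with a median of -0.16. None passed, with 3 lower at an unadjusted p under 0.05 and 1 in DESeq2, Postn, against the same shares of all genes. Fbn1, Postn and Fn1, encoding fibrillin 1, periostin and fibronectin, were at -0.49, -2.02 and -0.81 (adjusted p = 0.168, 0.221 and 0.343 by edgeR). Vcam1, Tnc and Npnt, named after their values were seen because they encode ligands of alpha 4, alpha 9 and alpha 8, were at 0.19, 0.25 and 0.27 (adjusted p = 0.608, 0.454 and 0.480 by edgeR).

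Inside the cell, 18 of 24 tested activators and adaptors were below 0 (all genes 52.4%), with a median of -0.22, and 0 passed, with 5 lower at an unadjusted p under 0.05 (all genes 7.43%) and 0 in DESeq2. Lims2, a PINCH adaptor gene, Flna, for the actin crosslinker filamin A, and Vcl, for vinculin, were at -0.93, -0.31 and -0.34 (adjusted p = 0.148, 0.212 and 0.221 by edgeR). Of 6 integrin inhibitor genes 0 passed, 1 was at an unadjusted p under 0.05 and 1 passed in DESeq2, Kank1, which encodes a talin-binding protein of the cell cortex and was at -0.58 (adjusted p = 0.100 by edgeR). Sharpin and Kank2 were at -0.26 and -0.17 (adjusted p = 0.616 and 0.732 by edgeR). Of 8 membrane partners 0 passed, with 1 lower and 2 higher at an unadjusted p under 0.05 (all genes 13.6% in either direction) and 0 in DESeq2. Cd151, encoding a tetraspanin that binds laminin receptors, was at 0.32 (adjusted p = 0.197 by edgeR). Cd47 was at 0.45 (adjusted p = 0.326 by edgeR) and Sdc4 at -0.22 (adjusted p = 0.359 by edgeR).

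Over the 86 tested genes of these lists together, 1 fell and 0 rose, 22 were lower and 2 higher at an unadjusted p under 0.05, and the median log2 fold change was -0.23. Of all 10775 tested genes 0.343% fell and 0.362% rose. At an unadjusted p under 0.05, 801 of them (7.43%) were lower and 668 higher. The ranges of the 2 groups lay apart for 19 lower genes of the lists and 1 higher gene, Cd151. Of all tested genes 6.92% lay apart lower and 6.36% higher. The lists were chosen with earlier results of these data known, so their counts are no independent support for a decrease.

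**Figure D5:**
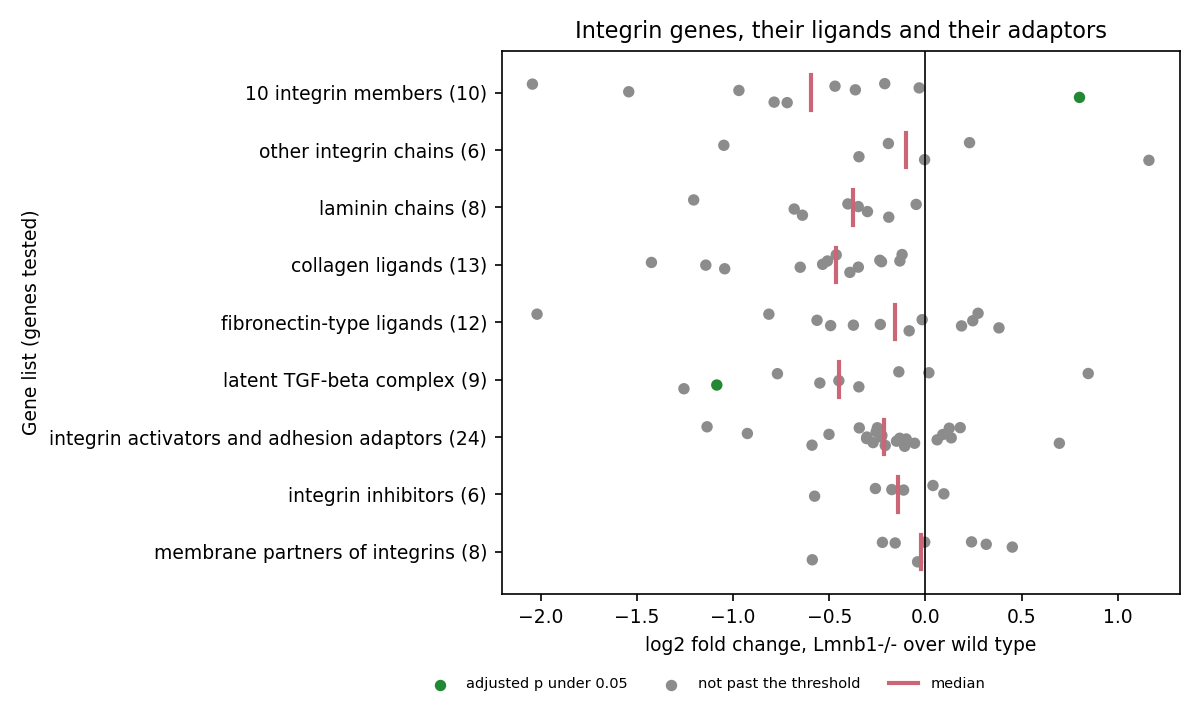
Log2 fold changes of the tested genes in each list, with the number tested in parentheses. Each point is 1 gene, red lines are list medians, and green marks an adjusted p under 0.05, reached by Itga6 above 0 and Tgfb3 below 0. Medians run from -0.59 for the 10 integrin genes, Itgb8 included, to -0.02 for the membrane partners.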

How the data were processed

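Per the file headers, the authors deposited for each of the 7 libraries a table of 22738 gene rows in which each gene has 2 counts in unlabelled columns. The first column was used. What separates the columns is not given in the sources used here, nor are the annotation and the counting program. TopHat, edgeR and mm9 appear in the submitters' processing notes. Over all genes the second column held 16.6 to 19.6% of the counts of both columns in each library. It added 4.68% of the counts of Itga6 and at most 0.894% for the other integrin genes. Per the labels' protocols the library kit was Illumina TruSeq RNA v2, which does not mark strand, and 6 of the 10 genes have a gene on the opposite strand overlapping their span (GENCODE M21), so reads there cannot be told apart.

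Counts were filtered with filterByExpr and scaled by TMM, and 10775 genes were tested with edgeR's quasi-likelihood test (edgeR 4.0.16, R 4.3.3), robust, without covariates, with Benjamini-Hochberg adjustment over all tested genes and a threshold of 0.05. Fold changes are Lmnb1-/- over wild type. Standard errors come from the fold change and its F value. Group levels are given in CPM as mean ± SD. Lengths are of the longest coding transcript in GENCODE M21 (GRCm38), another build than mm9, so no coordinates are printed. No sequence bears on these results. Correlations used log2 CPM with a prior count of 2.

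Alternatives were RLE scaling, unscaled totals, no count filter, a minimum of 1 CPM in 3 libraries, DESeq2 1.42.0, limma voom (limma 3.58.1), both count columns summed, sex or library number groups as a term, a replicate block, male libraries only and leaving out each library. Exon union length was added after seeing the data. Of 104 listed genes 103 had a row. Named genes were the 10 integrins, Lmnb1, genes past the threshold or the 3 of smallest p in each list, and the 3 genes most correlated with Itga6. Outside this rule Itga7, Itgam, Itga2, Itga10, Itga11, Itgb4, Itgb6, Vcam1, Tnc and Npnt were named after their values were seen. So were the single markers Acta2, Tagln, Myh11, Cnn1 and Col1a1. The members and lists were chosen with earlier results of these data known. The procedure was tested on simulated counts, where 15 of 157 calls at the threshold were false. It recovered 22% of simulated 1.5-fold changes, 70% of 2-fold changes and 96% each of 3-fold and 4-fold changes, with 50 genes each. Smaller changes were thus often missed. Chi-square per degree of freedom between replicates ran from 2.22 to 7.71, so no 2 libraries were the same.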

Additional observations from a re-analysis of the deposited data

How the results depend on the processing

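The number of integrin genes past the threshold was 1 in edgeR's main test. It was also 1 with RLE factors, with unscaled totals, without a count filter and with a minimum of 1 CPM in 3 libraries. It was 3 in DESeq2 (Itga1, Itga6 and Itga8) and 2 among male libraries (Itga6 and Itga8). With the library number groups as a block Itga1 passed. Itgb8 also passed there, but it was tested only through its wild type libraries and is not counted. The number was 0 in limma voom, with both count columns summed and with sex as a covariate. Leaving out 1 library gave 0 to 3, with 3 without wild type replicate 1 and 0 without any other library. Itga6 was not past the threshold in 11 of 18 alternatives and stayed above 0 in all 18, between 0.64 and 0.99. With both columns summed its adjusted p was 0.0508 and in limma voom 0.0539. Itgav was the only integrin gene to change sign. It was at 0.020 with unscaled totals and at 0.053 with the number groups as a block, and leaving out 1 library gave -0.11 to 0.049, above 0 without wild type replicate 2 or Lmnb1-/- replicate 1 or 2.

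Over all genes 76 passed, with 180 without a count filter, 175 in DESeq2, 46 in limma voom, 44 with both columns summed, 38 with sex as a covariate and 3 to 279 on leaving out 1 library. Among the other listed genes 1 passed, with 6 without a count filter, 4 in DESeq2, 9 among male libraries, 3 with the number groups as a block and 0 to 12 on leaving out 1 library. The cause of these changes in number was not tested. With unscaled totals 47 genes were higher and 26 lower, against 39 and 37.

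Same-numbered libraries did not deviate together throughout, with correlations of 0.26, -0.16 and -0.09 for replicates 1, 2 and 3. The replicate 1 pair also has neighbouring library numbers, so its value cannot tell the 2 groupings apart. Libraries of neighbouring library number correlated at 0.26, 0.19 and 0.33. Blocking on those groups changed the calls as given above, with Itga6 lost (adjusted p 0.0610 by edgeR) and Itga1 gained. Itgb8 also passed there, which is no support for a decrease, as it was tested only through its wild type libraries. Wild type replicates 2 and 3 share no number group with an Lmnb1-/- library, so that fit took no difference between genotypes from them. With the replicate block 77 genes passed, 0 of them integrin genes and 2 of the other listed genes, and Itga6 had an adjusted p of 0.0594. Exon union length in place of transcript length moved the mean share of each receptor class by less than its SD. Depth bears on Itgb8, with 4 to 27 counts per library, which was not tested without wild type replicate 1, 3 or 4.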
